A study of Mus musculus with 14 samples.

Results

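Chemokines are small secreted or membrane-held proteins that guide leukocytes, and they act on receptors of the G protein-coupled kind. Inflammatory chemokines are made by endothelial cells, fibroblasts and macrophages of an injured or strained tissue and draw in monocytes and lymphocytes that carry the matching receptor. In the heart, Ccl2 and its receptor Ccr2 are best known for the entry of monocytes, and Cxcl12 and its receptor Cxcr4 for the retention of progenitor cells and for vessel growth.

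The 9 genes described here are 6 ligands (Ccl2, Ccl5, Ccl8, Cx3cl1, Cxcl16 and Cxcl12) and 3 receptors (Cx3cr1, Cxcr6 and Cxcr4), out of 19937 genes measured. They were chosen by name, and each was read by the single probe set that carries its symbol alone. The mRNA was measured in the myocardium of the left ventricle of male mice, 3 weeks after surgery, with the RNA of each mouse on an Affymetrix mouse ST 1.0 array of its own (14 arrays). There were 4 CXCR5-/- mice and 4 wild type (WT) mice with banding of the ascending aorta (AB), and 3 CXCR5-/- mice and 3 WT mice with a Sham operation. The CXCR5-/- mice lacked the receptor in all tissues, since a neomycin resistance gene took the place of its coding region in embryonic stem cells of a strain other than C57BL/6, and the line is on a C57BL/6 background. WT mice were C57BL/6 mice from a commercial breeder. The age of the mice is not given in the sources used here.

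All values are log2 levels, so a difference of 1 is a doubling, and differences are given as the first named group minus the second. A gene was called changed when limma gave it an adjusted p under 0.05 over all genes. The cardiomyocyte markers, which name the tissue, were at 12.1 to 12.3 on the mean of 8 genes on all arrays. Transcripts of the atrium were uneven, with Myl7, an atrial myosin light chain, at 7.49 or less on all AB arrays, against 9.68, 8.82 and 6.93 on CXCR5-/- Sham arrays and 9.09, 6.10 and 6.85 on WT Sham arrays. The Cxcr5 probe set itself was at 4.43, 4.47, 3.97 and 4.21 on arrays labelled CXCR5-/- AB, against 3.30, 3.03, 3.30 and 3.18 on WT AB arrays, and at 4.09, 4.11 and 3.85 on arrays labelled CXCR5-/- Sham, against 3.23, 3.23 and 3.24 on WT Sham arrays. It was thus higher, not lower, on arrays labelled CXCR5-/-, by 1.07 (SE 0.11, adjusted p = 1.27e-04) after AB and by 0.78 (SE 0.13, adjusted p = 0.0210) after Sham. The sources used here do not place this probe set inside or outside the replaced coding region. It therefore does not check the labels, and the call after Sham was lost without any 1 of 6 arrays. The genotypes are therefore called labelled CXCR5-/- and WT where they are set against each other.

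Some of the genes lie beside other chemokine genes, and each has a probe set of its own. Whether a probe set also binds transcripts of a neighbouring gene was not examined. In the RefSeq order of protein-coding genes of GRCm38.p6, Ccl2, Ccl7, Ccl11, Ccl12 and Ccl8 follow each other on chromosome 11, Cx3cl1 lies between Ccl22 and Ccl17 on chromosome 8, and Cx3cr1 lies next to Ccr8 on chromosome 9. Cx3cr1 and Cxcr6 are on the chromosome of Cxcr5, with 722 and 776 protein-coding genes between.

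On the mean of both genotypes Cx3cl1 and its receptor Cx3cr1 were called higher after AB, Cxcl12 lower and its receptor Cxcr4 higher. The call of Cxcr4 did not hold under every array left out. Promoter sequences from RefSeq matched 6 of the 9 genes, and for these 4 the 250 bases before the start are shown. They are read 5′ to 3′ on the strand of the gene in GRCm38.p6, with capitals at matches to the TATA box.
Cx3cl1, chr8:94771930-94772179, plus strand: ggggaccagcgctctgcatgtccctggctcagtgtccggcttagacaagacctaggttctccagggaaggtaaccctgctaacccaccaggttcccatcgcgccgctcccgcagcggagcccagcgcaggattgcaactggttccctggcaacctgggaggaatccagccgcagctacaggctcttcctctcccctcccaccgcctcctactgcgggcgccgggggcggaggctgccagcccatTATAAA
Cx3cr1, chr9:120068297-120068546, minus strand: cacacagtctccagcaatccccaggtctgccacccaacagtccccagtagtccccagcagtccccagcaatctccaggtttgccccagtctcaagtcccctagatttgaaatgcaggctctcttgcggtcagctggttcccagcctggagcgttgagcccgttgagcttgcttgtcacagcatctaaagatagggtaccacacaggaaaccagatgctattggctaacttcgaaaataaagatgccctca
Cxcl12, chr6:117168285-117168534, plus strand: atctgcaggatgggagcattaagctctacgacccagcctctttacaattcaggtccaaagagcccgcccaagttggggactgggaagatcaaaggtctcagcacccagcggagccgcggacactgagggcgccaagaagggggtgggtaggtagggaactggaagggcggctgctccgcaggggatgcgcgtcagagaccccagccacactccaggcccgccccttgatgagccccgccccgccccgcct
Cxcr4, chr1:128592300-128592549, minus strand: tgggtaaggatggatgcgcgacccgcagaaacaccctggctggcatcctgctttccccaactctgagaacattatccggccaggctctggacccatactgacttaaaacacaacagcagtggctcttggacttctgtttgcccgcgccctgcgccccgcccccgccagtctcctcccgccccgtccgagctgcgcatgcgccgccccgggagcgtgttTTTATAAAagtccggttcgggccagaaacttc
Both strands were searched for 5 motifs, which were the TATA box (TATAAA), the AP-1 site (TGANTCA), the GAS element bound by STAT proteins (TTCNNNGAA), the core of the hypoxia response element (ACGTG) and the κB site. The TATA box matched in Cx3cl1, 6 bases before the start, and in Cxcr4, where the match on the gene's strand began 30 bases before the start and overlapped a match on the other strand. It also matched in Ccl8, 32 bases before the start, and 12.4% of the windows of this length before 32817 starts hold it. None of the other 4 motifs matched in the 6 windows, and 6.75% of all windows hold the AP-1 letters, 7.02% the GAS letters, 16.6% the hypoxia core and 3.90% the κB site. The windows of Cx3cl1, Cxcl12 and Cxcr4 had 64.8%, 64.4% and 61.2% G and C, that of Cx3cr1 had 53.6%, and the median window had 52.4%.

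AB was set against Sham within each genotype and on their mean. In CXCR5-/- hearts 4 of the 9 were called higher (Cxcl16, Cx3cl1, Cxcr4 and Cx3cr1), where 8.28% of all genes were, and none lower, where 5.86% of all genes were. In WT hearts 3 of the 9 were called higher (Cx3cr1, Cx3cl1 and Cxcl16), where 5.10% of all genes were, and none lower, where 4.22% of all genes were. On the mean of both genotypes 7 were called higher (12.3% of all genes) and 1, Cxcl12, lower (10.4% of all genes), and Ccl2 was not called. Of the 7 higher on the mean, Cx3cl1, Cx3cr1, Cxcl16 and Ccl5 stayed called without any 1 array, and Ccl8, Cxcr6 and Cxcr4 did not. The median difference of the 9 genes was 0.69 in CXCR5-/- hearts and 0.35 in WT hearts, beside medians of -0.01 and 0.01 over all genes. AB and Sham arrays did not overlap for 6 of the 9 genes in CXCR5-/- hearts, where 25.4% of all genes did not, and for 6 in WT hearts, where 17.1% did not. The median and the non-overlap counts describe these arrays, with no test. In ventricular tissue, more cells of a type and more mRNA per cell cannot be told apart. Markers of macrophages and monocytes moved with these genes, with 8 of 13 called higher in CXCR5-/- hearts and 5 of 13 in WT hearts and none called lower in either. In each genotype 11 of the 13 had a difference above 0 and 2 below. Their part in the results was not tested. The mean level of those 13 markers ran from 7.03 to 7.32 on CXCR5-/- AB arrays and from 6.61 to 6.70 on CXCR5-/- Sham arrays. It ran from 6.98 to 7.15 on WT AB arrays and from 6.72 to 6.82 on WT Sham arrays.

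**Figure D1:**
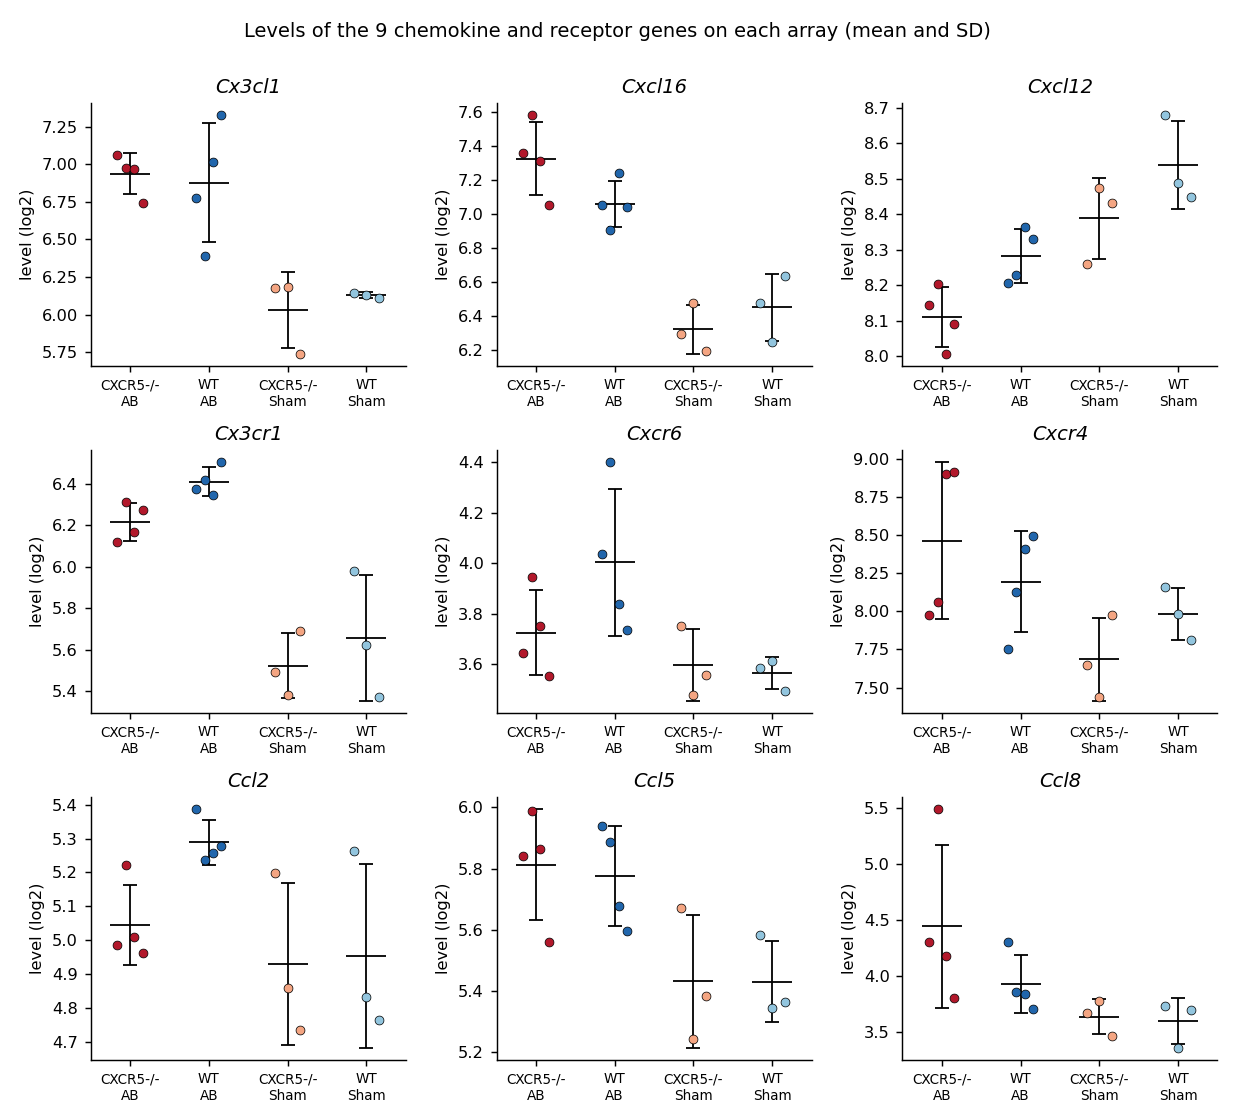
Level (log2) of each of the 9 genes on each of the 14 arrays, by group. Points are mice, horizontal lines are group means and bars are SD (n = 4 for AB, n = 3 for Sham). Cx3cl1, Cx3cr1 and Cxcl16 lie higher on every AB array than on any Sham array, and Cxcl12 lies lower on every AB array than on any Sham array of the same genotype.

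Cx3cl1 (fractalkine) is a chemokine tethered to the membrane of endothelial and other cells that can also be shed, and Cx3cr1 is its only known receptor, carried by monocytes, macrophages and some lymphocytes. Cx3cl1 was at 7.06, 6.97, 6.97 and 6.74 on CXCR5-/- AB arrays and at 6.78, 6.39, 7.01 and 7.32 on WT AB arrays, against 6.17, 6.18 and 5.74 on CXCR5-/- Sham arrays and 6.14, 6.13 and 6.11 on WT Sham arrays. All 8 AB arrays lay above all 6 Sham arrays, and the WT AB mice differed most among themselves (SD 0.39). The difference between AB and Sham was 0.91 (SE 0.17, 1.87-fold, adjusted p = 0.00112) in CXCR5-/- hearts and 0.75 (SE 0.17, 1.68-fold, adjusted p = 0.00752) in WT hearts. Cx3cl1 stayed called in both genotypes without any 1 array, while the permutation method that the study names, significance analysis of microarrays, gave a q of 0.0803 in WT hearts.

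Cx3cr1 was at 6.12, 6.31, 6.17 and 6.27 on CXCR5-/- AB arrays and at 6.37, 6.42, 6.34 and 6.50 on WT AB arrays, against 5.49, 5.38 and 5.69 on CXCR5-/- Sham arrays and 5.98, 5.62 and 5.37 on WT Sham arrays. The AB arrays of each genotype lay close together and all 8 lay above the highest Sham array, that of WT Sham replicate 1. The receptor was higher after AB by 0.69 (SE 0.12, 1.62-fold, adjusted p = 7.26e-04) in CXCR5-/- hearts and by 0.75 (SE 0.12, 1.68-fold, adjusted p = 6.38e-04) in WT hearts. Ligand and receptor thus both passed in both genotypes, under each array left out. Cx3cr1 marks the same myeloid cells as several genes of the macrophage list, of which Cd68, a lysosomal protein, was higher by 1.09 (SE 0.14, adjusted p = 5.53e-05) in CXCR5-/- hearts and by 0.86 (SE 0.14, adjusted p = 8.07e-04) in WT hearts. Lyve1, Mertk and Cd163, picked from this list after their values were seen, passed in neither genotype. C1qa of the same list was higher by 0.95 (SE 0.18, adjusted p = 0.00145) in CXCR5-/- hearts. In WT hearts C1qa was higher by 0.68 (SE 0.18, adjusted p = 0.0230), a call lost without WT AB replicate 1 or 2 or WT Sham replicate 2 or 3 (adjusted p up to 0.129). Cd163 had a mean of 6.50 in CXCR5-/- AB hearts against 6.85 in CXCR5-/- Sham hearts and of 6.14 in WT AB hearts against 6.68 in WT Sham hearts, and on the mean of both genotypes it was the 1 macrophage gene called lower, beside 9 called higher. Of the 7 endothelial markers, 1 (Emcn) was called higher in CXCR5-/- hearts (8.28% of all genes) and in WT hearts (5.10%), and none lower. Most went the other way, with 5 of 7 below 0 in CXCR5-/- hearts and 6 of 7 in WT hearts. On the mean of both genotypes Kdr was called lower (difference -0.36, SE 0.11, adjusted p = 0.0261), and this call did not hold under every array left out. The mean level of the 7 was between 8.69 and 8.85 on CXCR5-/- AB arrays and between 8.66 and 8.96 on CXCR5-/- Sham arrays. It was between 8.59 and 9.01 on WT AB arrays and between 8.72 and 8.98 on WT Sham arrays.

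Cxcl16 is the other chemokine made with a membrane anchor, and it is also a scavenger receptor of macrophages. It was at 7.36, 7.58, 7.31 and 7.05 on CXCR5-/- AB arrays and at 7.05, 6.91, 7.24 and 7.04 on WT AB arrays, against 6.29, 6.47 and 6.19 on CXCR5-/- Sham arrays and 6.47, 6.24 and 6.63 on WT Sham arrays. Again every AB array lay above every Sham array. The difference was 1.01 (SE 0.13, 2.01-fold, adjusted p = 3.87e-05) in CXCR5-/- hearts, where Cxcl16 had the smallest p of the 9 genes and the rank of 184 among all genes. In WT hearts it was 0.61 (SE 0.13, 1.53-fold, adjusted p = 0.00469). The calls in both genotypes held without any 1 array and under each of the 10 other alternatives.

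The receptor of Cxcl16 was called in neither genotype, and its change was not tested against that of its ligand. Cxcr6, which is carried by subsets of T cells and natural killer cells, was dim, with a mean over all arrays at the 23.7th percentile of the probe sets. It was at 3.65, 3.95, 3.75 and 3.55 on CXCR5-/- AB arrays and at 4.04, 4.40, 3.84 and 3.74 on WT AB arrays, against 3.75, 3.48 and 3.56 on CXCR5-/- Sham arrays and 3.59, 3.61 and 3.49 on WT Sham arrays. The WT AB arrays lay above all WT Sham arrays, whereas the CXCR5-/- groups overlapped. The difference between AB and Sham was 0.13 (95% interval -0.16 to 0.42, adjusted p = 0.636) in CXCR5-/- hearts and 0.44 (95% interval 0.15 to 0.73, adjusted p = 0.0519) in WT hearts, and the WT value passed without any 1 of 3 arrays (CXCR5-/- AB replicate 2, WT AB replicates 3 and 4), with adjusted p between 0.0180 and 0.0494. The mean of both genotypes was 0.28 (SE 0.10, adjusted p = 0.0415). This call was lost when any 1 of 9 arrays was left out (CXCR5-/- AB replicates 2 and 3, WT AB replicates 1 and 2, CXCR5-/- Sham replicates 2 and 3, or any WT Sham array), with adjusted p up to 0.109. None of the 9 measured T and natural killer cell markers was called by limma in either genotype, while 2 of them had an unadjusted p under 0.05 in CXCR5-/- hearts, where 25.3% of all genes had, and 2 in WT hearts, where 21.1% had. Their mean level ran from 4.21 to 4.53 on CXCR5-/- AB arrays and from 4.07 to 4.34 on CXCR5-/- Sham arrays, and from 4.32 to 4.75 on WT AB arrays and from 4.09 to 4.29 on WT Sham arrays.

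Cxcl12 is made by stromal and endothelial cells of most tissues at rest. It was at 8.14, 8.21, 8.01 and 8.09 on CXCR5-/- AB arrays and at 8.21, 8.23, 8.36 and 8.33 on WT AB arrays, against 8.26, 8.48 and 8.43 on CXCR5-/- Sham arrays and 8.68, 8.49 and 8.45 on WT Sham arrays. Within each genotype every AB array lay below every Sham array. The difference was -0.28 (SE 0.09, 0.825-fold, adjusted p = 0.0534) in CXCR5-/- hearts and -0.26 (SE 0.09, 0.837-fold, adjusted p = 0.0985) in WT hearts, and neither passed by itself. The CXCR5-/- value passed without CXCR5-/- Sham replicate 1 (adjusted p = 0.0343) or WT Sham replicate 1 (0.0430), and with the arrays centred on a common median (0.0279). On the mean of both genotypes Cxcl12 was lower by 0.27 (difference -0.27, SE 0.06, adjusted p = 0.00577), and that call held without any 1 array and under each of the 8 other alternatives run for this mean. It was the only gene of the 9 whose difference was below 0.

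Cxcr4, the receptor through which Cxcl12 draws leukocytes and progenitor cells, moved the other way. It was at 7.97, 8.06, 8.90 and 8.91 on CXCR5-/- AB arrays and at 7.75, 8.12, 8.41 and 8.49 on WT AB arrays, against 7.65, 7.43 and 7.97 on CXCR5-/- Sham arrays and 8.16, 7.98 and 7.81 on WT Sham arrays. In both AB groups replicates 3 and 4 were higher than replicates 1 and 2, and the SD was 0.52 in CXCR5-/- AB hearts and 0.33 in WT AB hearts. Cxcr4 was called higher after AB in CXCR5-/- hearts, by 0.78 (SE 0.23, 1.71-fold, adjusted p = 0.0265), although the lowest AB array and the highest Sham array were both at 7.97. The call was lost without CXCR5-/- AB replicate 3 (adjusted p = 0.0827) or 4 (0.0767) and without CXCR5-/- Sham replicate 1 (0.0815) or 2 (0.135), and significance analysis of microarrays gave a q of 0.0576. In WT hearts the groups overlapped and the difference was 0.21 (95% interval -0.26 to 0.69, adjusted p = 0.679), running from 0.11 without WT AB replicate 4 to 0.36 without WT AB replicate 1. On the mean of both genotypes it was 0.49 (SE 0.16, adjusted p = 0.0319), a call lost without any 1 of 8 arrays (replicates 3 and 4 of CXCR5-/- AB and of WT AB, CXCR5-/- Sham replicates 1 and 2, WT Sham replicates 2 and 3), with adjusted p up to 0.0938. Ackr3, which also binds Cxcl12 and removes it, had group means of 6.04 in CXCR5-/- AB, 6.27 in WT AB, 6.04 in CXCR5-/- Sham and 6.26 in WT Sham hearts and was called in no comparison.

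**Figure D2:**
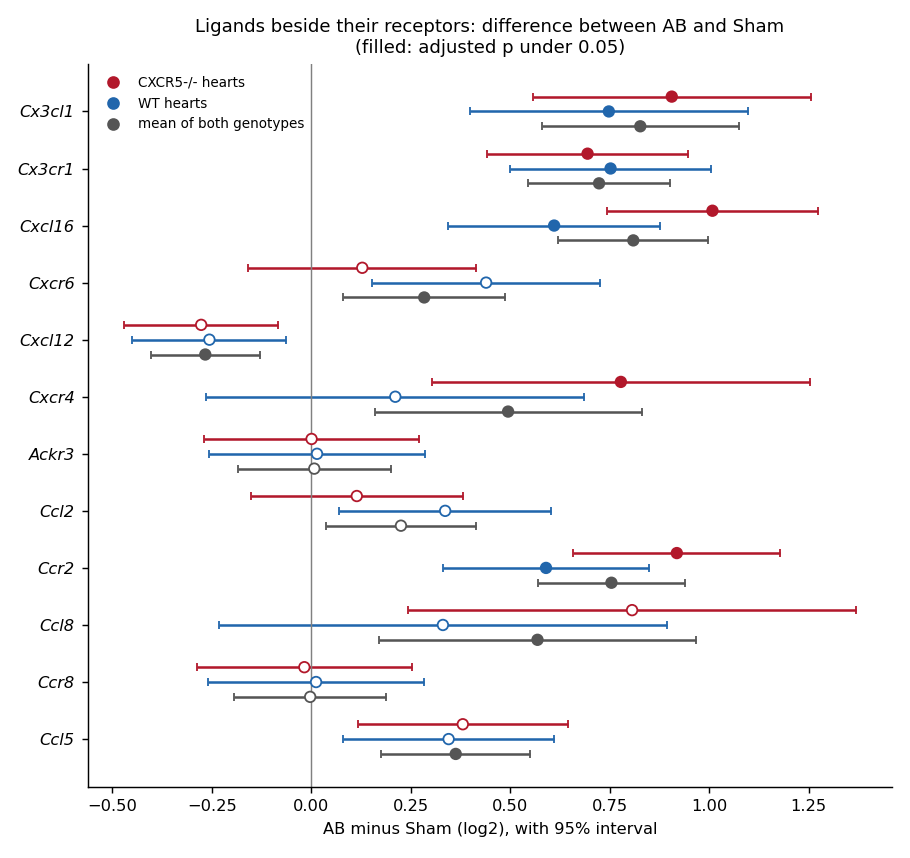
Difference between AB and Sham (log2) for each ligand with its receptors below it, in CXCR5-/- hearts, in WT hearts and on the mean of both. Points are limma estimates, bars are 95% intervals, and filled points have an adjusted p under 0.05. Cx3cl1, Cx3cr1, Cxcl16 and Ccr2 are filled in all 3 comparisons, Cxcl12 lies below 0, and Ackr3 and Ccr8 lie near 0.

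Ccl2 (monocyte chemoattractant protein 1) acts on Ccr2, the receptor of inflammatory monocytes. Ccl2 was at 4.99, 5.22, 5.01 and 4.96 on CXCR5-/- AB arrays and at 5.39, 5.24, 5.26 and 5.28 on WT AB arrays, against 5.20, 4.86 and 4.74 on CXCR5-/- Sham arrays and 5.26, 4.83 and 4.76 on WT Sham arrays. In each genotype Sham replicate 1 reached into the range of the AB arrays. Ccl2 was called in neither genotype, with a difference of 0.11 (95% interval -0.15 to 0.38, adjusted p = 0.653) in CXCR5-/- hearts and of 0.34 (95% interval 0.07 to 0.60, adjusted p = 0.118) in WT hearts. The CXCR5-/- value was 0.25 (adjusted p = 0.268) without CXCR5-/- Sham replicate 1, 0.02 without CXCR5-/- Sham replicate 3 and 0.06 without CXCR5-/- AB replicate 2. Without WT Sham replicate 1, an array on which Myl7 was high, the WT difference was 0.49 (adjusted p = 0.0173), and with the atrial transcripts as a covariate it was 0.36 (adjusted p = 0.0488). On the mean of both genotypes it was 0.23 (SE 0.09, adjusted p = 0.0838), and 0.30 (adjusted p = 0.0141) with that covariate. The same covariate ended the limma calls of Ccl8 (adjusted p = 0.0609) and Cxcr6 (adjusted p = 0.0919) on this mean.

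Ccr2, unlike its ligand Ccl2, was called in both genotypes. It was at 4.84, 5.24, 4.77 and 5.21 on CXCR5-/- AB arrays and at 4.64, 4.63, 4.81 and 4.94 on WT AB arrays, against 3.98, 4.17 and 4.14 on CXCR5-/- Sham arrays and 4.28, 4.09 and 4.13 on WT Sham arrays. All 8 AB arrays lay above all 6 Sham arrays. The receptor was higher by 0.92 (SE 0.12, adjusted p = 7.35e-05) in CXCR5-/- hearts and by 0.59 (SE 0.12, adjusted p = 0.00498) in WT hearts, and both calls held without any 1 array. Of the ligands of Ccr2 that lie beside Ccl2 on chromosome 11, Ccl12 was higher by 0.68 (SE 0.21, adjusted p = 0.0398) in CXCR5-/- hearts and by 1.01 (SE 0.21, adjusted p = 0.00490) in WT hearts. The CXCR5-/- call of Ccl12 was lost without any CXCR5-/- Sham array or CXCR5-/- AB replicate 1, 2 or 4 (adjusted p up to 0.156). Ccl7 differed by 0.12 (adjusted p = 0.652) in CXCR5-/- hearts and by 0.40 (adjusted p = 0.0736) in WT hearts, where it passed without WT AB replicate 2 or WT Sham replicate 1 (adjusted p = 0.0314 each).

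Ccl8 acts in the mouse mainly on Ccr8, a receptor of some T cells. It was dim as well, at the 26.8th percentile of the probe sets. It was at 4.30, 5.49, 4.18 and 3.80 on CXCR5-/- AB arrays and at 4.31, 3.86, 3.84 and 3.71 on WT AB arrays, against 3.67, 3.77 and 3.47 on CXCR5-/- Sham arrays and 3.73, 3.36 and 3.70 on WT Sham arrays. CXCR5-/- AB replicate 2 stood at 5.49, and this array also had the highest level of Cxcl13 (9.45) and of Cd68 (8.19) among the CXCR5-/- AB arrays. It had the highest level of all 14 arrays of Alas2, a marker of red blood cells (8.70), and of Adipoq, a marker of fat cells (6.89), and the part of these cells in the level of Ccl8 was not tested. The difference was 0.81 (95% interval 0.24 to 1.37, adjusted p = 0.0529) in CXCR5-/- hearts and 0.33 (95% interval -0.23 to 0.89, adjusted p = 0.548) in WT hearts. Leaving out CXCR5-/- AB replicate 2 brought the CXCR5-/- value to 0.46 (adjusted p = 0.0838), and leaving out CXCR5-/- AB replicate 4 brought it to 1.02 (adjusted p = 0.0110). On the mean of both genotypes Ccl8 was called higher by 0.57 (SE 0.19, adjusted p = 0.0371), a call lost without any 1 of 7 arrays (WT AB replicates 1 and 3, any CXCR5-/- Sham array, WT Sham replicates 2 and 3), with adjusted p up to 0.0996. Ccr8 lay near the low end of the scale, with group means of 3.03 in CXCR5-/- AB, 3.15 in WT AB, 3.05 in CXCR5-/- Sham and 3.14 in WT Sham hearts, and was called in no comparison.

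Ccl5 (RANTES) attracts T cells and monocytes. Ccl5 was at 5.84, 5.99, 5.86 and 5.56 on CXCR5-/- AB arrays and at 5.94, 5.89, 5.68 and 5.60 on WT AB arrays, against 5.67, 5.24 and 5.38 on CXCR5-/- Sham arrays and 5.58, 5.35 and 5.36 on WT Sham arrays. The groups overlapped in CXCR5-/- hearts through AB replicate 4 and Sham replicate 1, and in WT hearts they were just apart. The difference was similar in size in both genotypes, at 0.38 (SE 0.13, adjusted p = 0.0518) in CXCR5-/- hearts and 0.35 (SE 0.13, adjusted p = 0.103) in WT hearts. The CXCR5-/- value passed without any 1 of 5 arrays (CXCR5-/- AB replicate 4, CXCR5-/- Sham replicate 1, WT AB replicates 1 and 4, WT Sham replicate 1), with adjusted p between 0.0189 and 0.0485. The mean of both, 0.36 (SE 0.09, 1.29-fold, adjusted p = 0.00592), was called under each array left out. Ccr1, a receptor of Ccl5, differed by 0.47 (SE 0.16, adjusted p = 0.0409) on the mean of both genotypes, and this call was lost without any 1 of 10 arrays, with adjusted p up to 0.122.

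Proteases set how much of these chemokines is free. Adam10 and Adam17 cut Cx3cl1 and Cxcl16 from the membrane, and Dpp4 trims Cxcl12. Adam10 was higher after AB by 0.34 (SE 0.09, adjusted p = 0.0180) in CXCR5-/- hearts. There Adam10 lost the call without any 1 of 3 arrays (CXCR5-/- AB replicate 1 or 2, or CXCR5-/- Sham replicate 1, adjusted p up to 0.0906). It also lost it with the atrial transcripts as a covariate (adjusted p = 0.0577). In WT hearts it differed by 0.17 (SE 0.09, adjusted p = 0.319), and on the mean of both it was higher by 0.26 (SE 0.07, adjusted p = 0.00809). Adam17 and Dpp4 were called in no comparison. Of 14 measured genes that carry or end the signal inside the cell, 6 were called higher in CXCR5-/- hearts (8.28% of all genes) and 4 in WT hearts (5.10% of all genes). None was called lower in either. Among them Arrb2, a β-arrestin that turns chemokine receptors off and takes them into the cell, was higher by 0.61 (SE 0.09, adjusted p = 1.60e-04) in CXCR5-/- hearts and by 0.54 (SE 0.09, adjusted p = 7.81e-04) in WT hearts. Rac2, a GTPase of leukocytes, was higher by 0.44 (SE 0.12, adjusted p = 0.0303) in WT hearts, a call lost without WT AB replicate 3 or WT Sham replicate 2 or 3 (adjusted p up to 0.183). Its mean was 6.92 in CXCR5-/- AB hearts against 6.38 in CXCR5-/- Sham hearts. On the mean of both genotypes Rac2 was higher by 0.49 (SE 0.09, adjusted p = 4.49e-04).

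The relation of ligand to receptor within the groups was tested on the deviations from the group means over the 14 arrays, in 6 pairs and with a permutation test within groups. For Cx3cl1 and Cx3cr1 r was -0.12 (rho -0.23, adjusted p = 0.951 and 0.946), with no relation past the threshold. The other pairs of members with their receptors gave r between -0.07 and 0.13 with adjusted p of 0.951 each. Cxcl12 and Ackr3 gave r 0.59 (permutation p = 0.0627, adjusted 0.376) and rho 0.60 (permutation p = 0.0528, adjusted 0.317), and r was 0.54 without WT Sham replicate 1 and CXCR5-/- AB replicate 3, the arrays farthest from the median of the ligand. No pair passed.

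**Figure D3:**
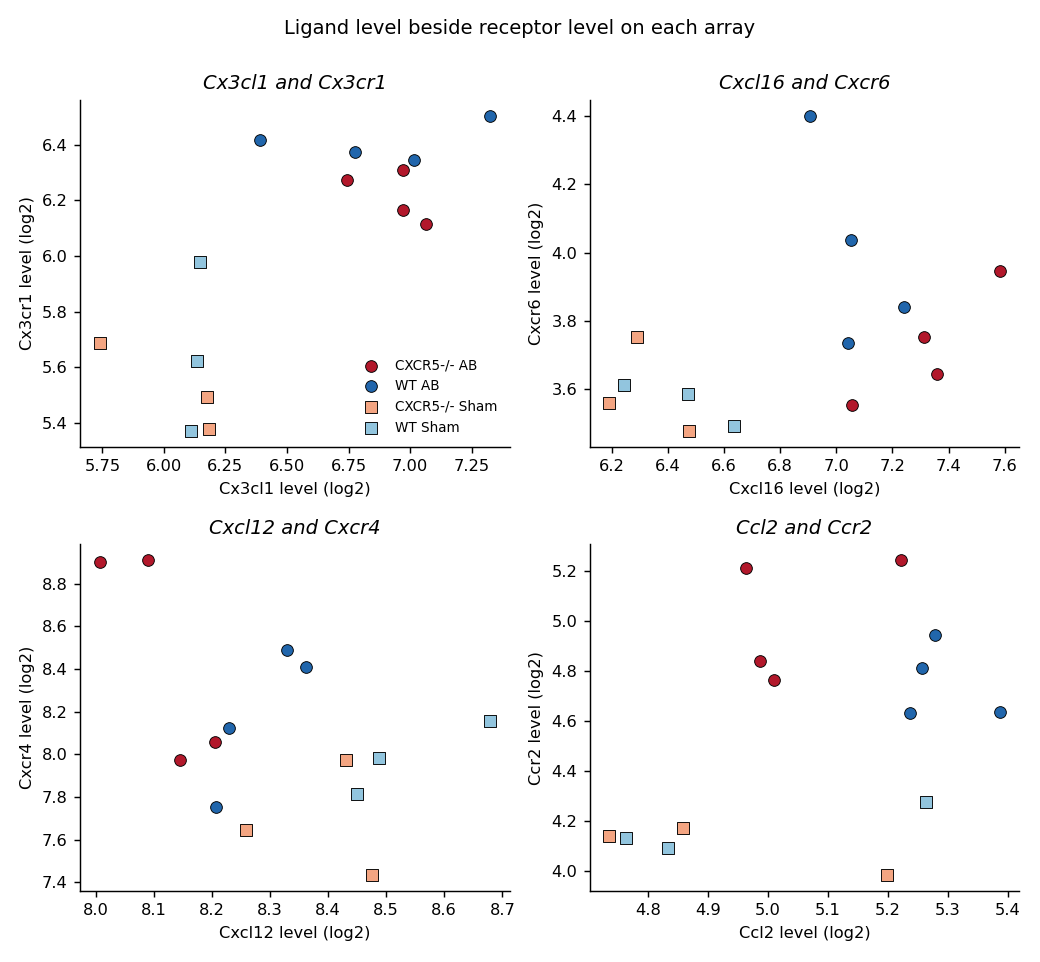
Level (log2) of a ligand on the horizontal axis and of its receptor on the vertical axis, with a point for each of the 14 arrays, circles for AB and squares for Sham. AB and Sham arrays fall apart in both directions for Cx3cl1 and Cx3cr1, mostly along the ligand for Cxcl16 and Cxcr6, and mostly along the receptor for Ccl2 and Ccr2.

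Over all 14 arrays, which the groups set apart, the 9 genes were most alike in Cx3cl1 and Cxcl16 (r 0.89), and Cxcl12 was negatively related to each of the other 8, from -0.17 with Ccl2 to -0.68 with Cxcl16. Of all genes, the ones closest to Cx3cl1 were Unc5b, a netrin receptor (r 0.98), Col15a1, a collagen of basement membranes (0.97), and Fbln1, a matrix protein (0.97). Those closest to Cxcl16 were Cdr2, Pdpn and Cpne8 (r 0.98, 0.97 and 0.97), and those closest to Cx3cr1 were Kctd17, Cd248, a marker of stromal cells, and Esm1, a proteoglycan of endothelial cells (r 0.94 each). Ccl8 was closest to Ccl6, another chemokine (r 0.93), Ccl5 to Bst2, a gene of the interferon response (0.95), and Cxcr4 to Prcp (0.93). For Cxcl12, Cxcr6 and Ccl2 the closest genes were BC004004, Krt88 and Mcemp1 (r 0.93, 0.90 and 0.91). These values describe the arrays and were not tested. Of the fibroblast markers, 7 of 7 were called higher in CXCR5-/- hearts (8.28% of all genes) and 4 of 7 in WT hearts (5.10% of all genes). All 7 had a difference above 0 in both genotypes. The part of fibroblasts in these likenesses was not tested.

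Beyond the 9 genes, most measured chemokines did not pass after AB. In CXCR5-/- hearts 6 of 30 other ligands were called higher and 3 lower, and 2 of 20 other receptors higher and 1 lower, beside 8.28% of all genes higher and 5.86% lower. In WT hearts 6 of the ligands were higher and 2 lower, and 3 of the receptors higher and 1 lower, beside 5.10% of all genes higher and 4.22% lower. The counts of receptors were thus close to the shares of all genes in CXCR5-/- hearts. The median difference was 0.04 for the ligands and 0.09 for the receptors in CXCR5-/- hearts, and 0.16 and 0.07 in WT hearts. Cxcl10, an interferon-induced ligand of Cxcr3, was at 6.59, 6.88, 6.19 and 6.09 on CXCR5-/- AB arrays, against 4.80, 4.60 and 4.91 on CXCR5-/- Sham arrays, and at 5.95, 6.18, 6.19 and 5.93 on WT AB arrays, against 5.40, 5.51 and 5.03 on WT Sham arrays. It was higher by 1.67 (SE 0.16, adjusted p = 3.39e-06) in CXCR5-/- hearts and by 0.75 (SE 0.16, adjusted p = 0.00683) in WT hearts, where the call was lost without WT Sham replicate 3 (adjusted p = 0.0604). Ccl3, a ligand of Ccr1, was higher by 0.78 (SE 0.20, adjusted p = 0.0135) in CXCR5-/- hearts, a call lost without CXCR5-/- Sham replicate 2 (adjusted p = 0.0886), and by 1.09 (SE 0.20, adjusted p = 0.00202) in WT hearts. Ccl11 (eotaxin), which lies between Ccl7 and Ccl12, was lower in both genotypes, with differences of -0.58 (adjusted p = 6.99e-04) in CXCR5-/- hearts and -0.71 (adjusted p = 2.12e-04) in WT hearts. Among receptors, Ackr4, a scavenger of Ccl19 and Ccl21, was higher by 0.85 (SE 0.15, adjusted p = 6.31e-04) in CXCR5-/- hearts and by 0.53 (SE 0.15, adjusted p = 0.0266) in WT hearts, where the call was lost without WT AB replicate 1 or 2 or WT Sham replicate 2 or 3 (adjusted p up to 0.134). Ccrl2, a receptor that binds chemerin without signalling, was lower in both, with differences of -0.77 (SE 0.10, adjusted p = 7.35e-05) in CXCR5-/- hearts and -0.71 (SE 0.10, adjusted p = 2.76e-04) in WT hearts.

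**Figure D4:**
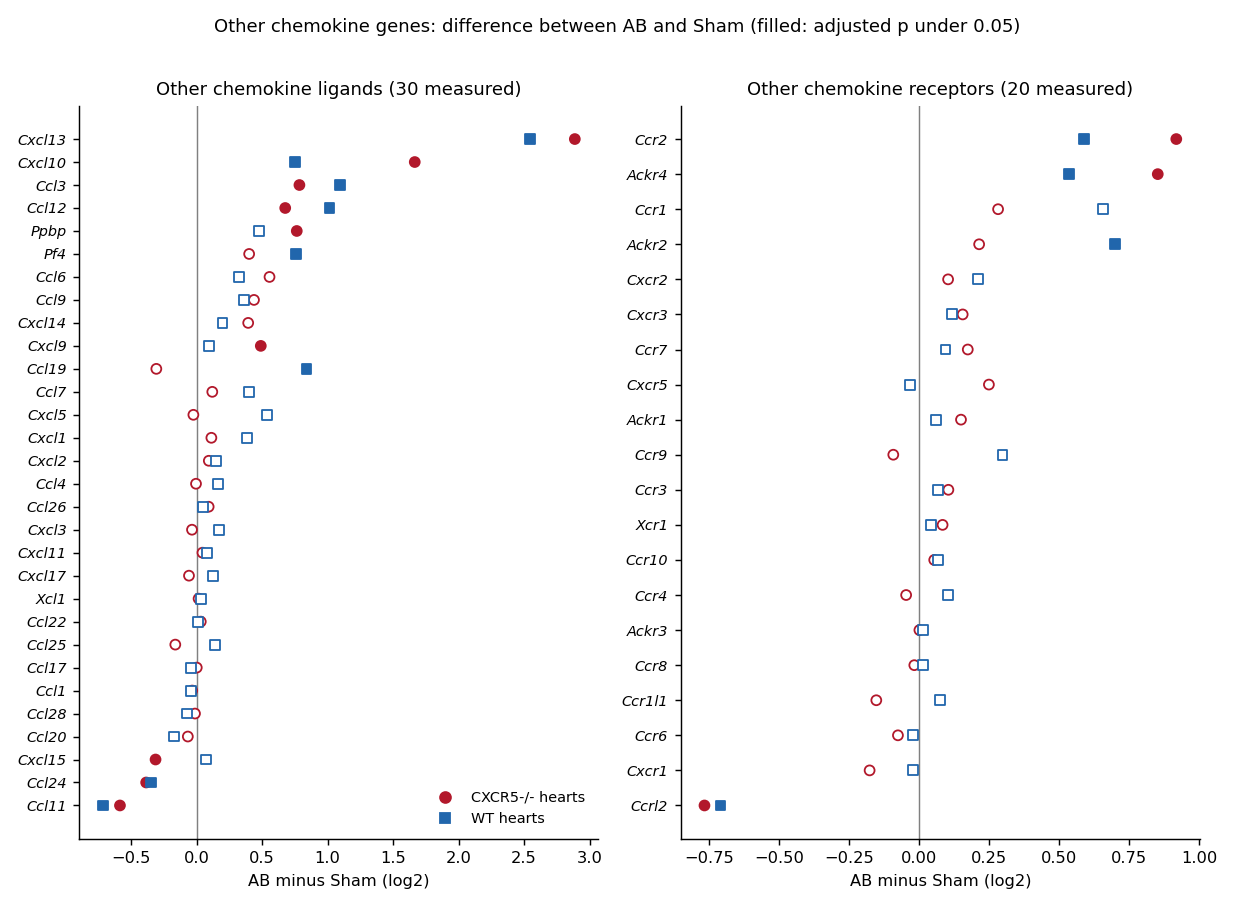
Difference between AB and Sham (log2) for the 30 other chemokine ligands (left) and the 20 other chemokine receptors (right) in CXCR5-/- hearts (circles) and WT hearts (squares), sorted by the mean of both. Filled symbols have an adjusted p under 0.05, and most symbols are open and near 0, with Cxcl13 and Cxcl10 farthest to the right and Ccl11 and Ccrl2 farthest to the left.

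The question of whether the lack of CXCR5 changes this response was addressed by the difference of the AB responses and by the genotypes side by side. None of the 9 genes was called in any of these comparisons by limma, beside 0% of all genes for the difference of responses, 0.0451% after AB, 0.0401% after Sham and 0.0953% on the mean of both operations. At an unadjusted p under 0.05 there was 1 of the 9 genes for the difference of responses (2.88% of all genes), 2 after AB (5.94%), 0 after Sham (2.38%) and 1 on the mean of both operations (4.67%). On simulated data a log2 difference of 0.5 was recovered for 1% of the changed genes in the difference of responses and for 55.5% between genotypes after AB. It was recovered for 39% after Sham and 80% on the mean of both operations. More changed genes were planted there than were called between genotypes in these data, which eases the adjusted threshold. These shares can therefore overstate what would be recovered here. The difference of responses was largest for Cxcr4, at 0.57 (95% interval -0.10 to 1.24, adjusted p = 0.9998), followed by Ccl8 at 0.48 (95% interval -0.32 to 1.27, and 0.13 without CXCR5-/- AB replicate 2) and Cxcl16 at 0.40 (95% interval 0.02 to 0.77), each with the same adjusted p. Below 0 it was largest for Cxcr6, at -0.31 (95% interval -0.72 to 0.09), and Ccl2, at -0.22 (95% interval -0.60 to 0.16). For Cx3cl1, Cx3cr1, Ccl5 and Cxcl12 it lay between -0.06 and 0.16, with 95% intervals that together ran from -0.42 to 0.65.

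After AB, the arrays of the 2 genotypes did not overlap for 3 of the 9 genes, where 3.12% of all genes did not. These were Ccl2, with a difference of -0.24 (SE 0.12, adjusted p = 0.841) between hearts labelled CXCR5-/- and WT hearts, Cx3cr1 at -0.19 (SE 0.11, adjusted p = 0.905) and Cxcl12 at -0.17 (SE 0.09, adjusted p = 0.856), and all were lower on arrays labelled CXCR5-/-. Cxcl16 was 0.27 higher (95% interval 0.02 to 0.51, adjusted p = 0.790) and its receptor Cxcr6 differed by -0.28 (95% interval -0.54 to -0.01, adjusted p = 0.815), with overlapping arrays in both genes. In the 4 same-numbered pairs of AB arrays, Cxcl16 was higher in all 4 on the array labelled CXCR5-/-. Cxcr6, Ccl2, Cx3cr1 and Cxcl12 were lower in all 4, so 5 of the 9 genes kept 1 sign, where 14.2% of all genes did. For Ccl2, Cx3cr1 and Cxcl12 the lack of overlap fixes the sign under any pairing, so their signs add nothing to it. With the replicate number as a block shared by AB and Sham arrays, the adjusted p was 0.579 for Cxcl16 and 0.493 for Cxcr6. A paired fit of the AB arrays alone was not run. Under this block 21 of all genes were called in place of 9, and none of the 9 chemokine and receptor genes was among them. Ccl8 differed by 0.51 (95% interval -0.01 to 1.04, adjusted p = 0.841), and by 0.17 without CXCR5-/- AB replicate 2. After Sham no gene of the 9 was apart in all arrays, where 6.85% of all genes were, and the differences ran from -0.30 (Cxcr4) to 0.04 (Ccl8). On the mean of both operations Cxcl12 was lower on arrays labelled CXCR5-/-, at -0.16 (95% interval -0.30 to -0.02, adjusted p = 0.920).

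**Figure D5:**
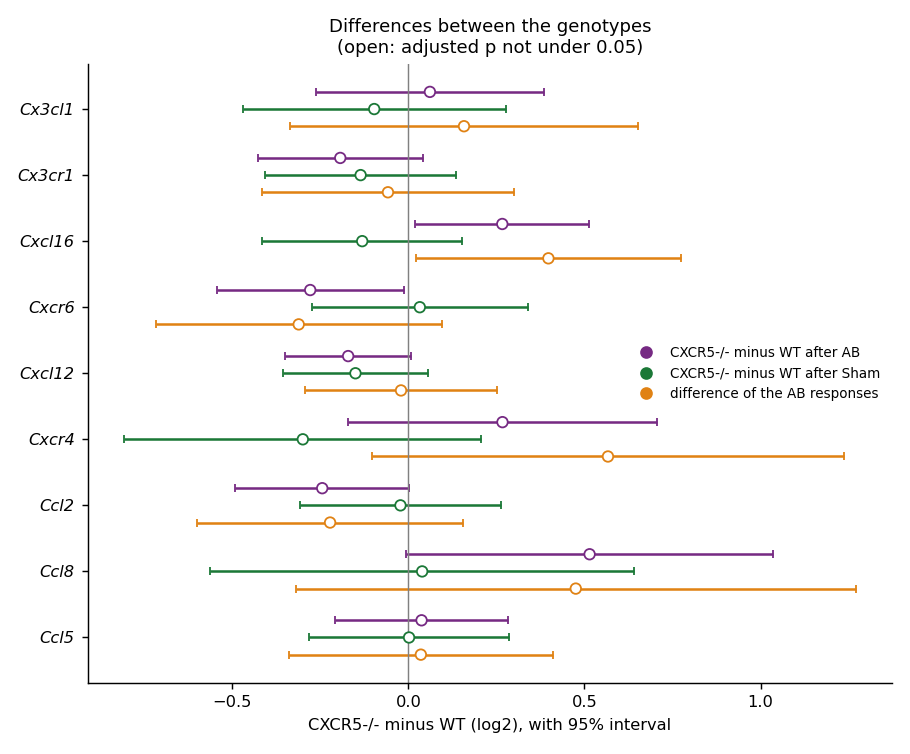
Difference between hearts labelled CXCR5-/- and WT hearts (log2) for the 9 genes after AB, after Sham, and for the difference of the AB responses. Points are limma estimates with 95% intervals, and all are open because no adjusted p is under 0.05. The intervals of Cxcl16 after AB and in the difference of responses and of Cxcr6 after AB leave out 0, and the others include it.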

How the data were processed

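RNA of the left ventricle of 14 mice was hybridised to Affymetrix mouse ST 1.0 arrays, 1 array per mouse. The deposited values are log2 levels that the authors made with the robust multi-array average (RMA), and its version and settings are not given in the sources used here. RMA subtracts background and makes the arrays' distributions alike, so levels of different genes are not comparable and dim genes are compressed towards the low end. Array medians lay between 5.19 and 5.30, and arrays correlated with r from 0.975 to 0.993. The number of arrays limits the precision.

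Of 34760 probe sets, 21640 carried 1 gene symbol in the platform annotation, 1321 carried several and were not named, and 11799 were not listed. Each of 19937 genes was read by that of its single-symbol probe sets whose mean level was highest, and each of the 9 genes had 1 such probe set. A linear model with a mean per group was fitted over all genes in limma 3.58.1 (R 4.3.3), with moderated variances, Benjamini-Hochberg adjustment over all genes and a threshold of 0.05. It gave AB against Sham in each genotype and on their mean, CXCR5-/- against WT after each operation and on their mean, and the difference of the AB responses, 7 comparisons in all. Ligand and receptor were related by permutation within groups (100000 resamples). On simulated data of 19937 genes, log2 changes of 0.5 were recovered for 43% of changed genes for AB in CXCR5-/- hearts and for 43% in WT hearts. Fewer changed genes were planted there than were called after AB in these data. Promoters came from RefSeq (GRCm38.p6). Python 3.11.15, pandas 2.3.3 and matplotlib 3.10.9 were used besides.

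The 9 genes, the gene lists and the tests were chosen with earlier results of these data known. The text names the 9 genes, their receptors and proteases, Cxcr5, up to 4 genes per list with the largest change past the threshold and the 3 genes most like each of the 9. Ccl7, Ccl11, Lyve1, Mertk and Cd163 were chosen after their values were seen, as were Cxcl10 and Ccl12 in the comparisons where the rule does not name them. The alternatives were another variance model, array weights, a filter on dim genes, centring, quantile normalization, averaging the probe sets of each gene, a fit of only the groups compared, the replicate number as a block, the atrial genes Myl7, Myl4 and Sln as a covariate, significance analysis of microarrays over 35 permutations, and each array left out. Same-numbered CXCR5-/- AB and WT AB arrays deviated together in all 4 pairs (r from 0.13 to 0.22), so the number was taken to pair them. The labels do not say what the number stands for, and arrays with different numbers were not compared in this way.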

Additional observations from a re-analysis of the deposited data

How the results depend on the processing

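Over 131 results, no alternative turned a direction. Of the values that had passed, 147 no longer passed and 1281 still passed when an array was left out, and 54 no longer passed and 869 still passed under the other alternatives. Of those that had not passed, 20 passed with an array left out and 26 under another alternative.

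The number of the 9 genes called after AB in CXCR5-/- hearts was 4, and 7 with array weights (23.9% of all genes) and 3 with significance analysis of microarrays (11.7%), which lost Cxcr4. In WT hearts it was 3, and 6 with array weights (17.1% of all genes) and 2 with significance analysis of microarrays (3.56%), which lost Cx3cl1. With an array left out it ran from 3 to 6 in CXCR5-/- hearts, from 3 to 4 in WT hearts and from 5 to 8 on the mean of both genotypes, where it was 5 without CXCR5-/- Sham replicate 2, WT Sham replicate 2 or WT Sham replicate 3. The filter on dim genes left out Ccl8 and Cxcr6, so these have no value under it. Between genotypes none of the 9 passed under any alternative.

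With the replicate number as a block, 6 of the 9 genes were called in CXCR5-/- hearts (18.2% of all genes), 5 in WT hearts (13.2% of all genes), where Ccl5 (adjusted p = 0.0138) and Cxcr6 (adjusted p = 0.00842) were added, and 9 on the mean of both genotypes (26.5% of all genes). AB and Sham arrays were not taken as paired. Their same-numbered arrays correlated between -0.11 and 0.13 in CXCR5-/- hearts and between -0.06 and 0.26 in WT hearts. Between genotypes after AB, where the number was taken to pair the arrays, the block changed no call of the 9 genes. Sham arrays shared this block, so it does not test the pairing of the AB arrays alone. After Sham the pairs correlated at 0.45, 0.03 and 0.17.

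Over all genes, array weights called 4770 after AB in CXCR5-/- hearts, where 1650 higher and 1168 lower were called without them, and 3408 in WT hearts, where 1016 higher and 842 lower were. Significance analysis of microarrays called 427 higher and 283 lower in WT hearts. Array weights called 39 genes in place of 8 between genotypes after Sham and 48 in place of 19 on the mean of both operations, and a fit of only the AB groups called 4 in place of 9 after AB. The cause was not tested. The dim probe sets of Ccl8, Cxcr6 and Ccr8 limit what these arrays can show for those genes.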
